A study of Mus musculus with 6 samples.

Results

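Transcripts of 9 genes of the hypoxia pathway were followed in mouse liver, namely Vhl, Hif1a, Epas1, Egln1, Egln3, Vegfa, Ankrd37, Bnip3 and Adm. They were taken by gene symbol from the 45777 genes of the deposited table, each symbol matched 1 row, and all 9 passed the filter on low counts. The livers came from male C57BL/6 mice of 2 genotypes, with 3 mice and 1 library per mouse in each. The control littermates (LT) were Fpn f/f, carrying the floxed ferroportin gene Slc40a1 without Cre. The other group (Fpn-LKO) was Alb-Cre; Fpn flox/flox, so both groups shared the floxed allele. By design, the albumin promoter that drives Cre directs the recombination to hepatocytes. All mice were on a high-fat diet with 60% of its energy from fat, a diet that the methods give as started at 8 weeks of age, and its length for these livers was not given in the sources used here. The floxed line was of 129S origin and, per the methods, the crosses were backcrossed to C57BL/6J for 10 generations. The tissue was whole liver, so transcripts of endothelial, Kupffer and other cells, which the design does not target, were read together with those of hepatocytes.

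Hypoxia-inducible factors (HIF) are pairs of an oxygen-labile alpha subunit, encoded by Hif1a or Epas1, and a stable partner encoded by Arnt. When oxygen and iron are at hand, the prolyl hydroxylases of the Egln family, which need ferrous iron as a cofactor, mark the alpha subunits, and the VHL protein then recruits the ubiquitin ligase that sends them to the proteasome. When hydroxylation fails, HIF accumulates and switches on genes for vessel growth, glycolysis, mitophagy and iron uptake. In liver, the oxygen fall from the portal to the central vein gives this system a steady gradient to read. Control by hydroxylation acts on the HIF proteins, which were not measured here, so the values describe the messenger RNA of the sensors and the target genes.

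The libraries held between 43086184 and 47778683 counts on genes. Slc40a1, the targeted gene, did not check the labels, since its level was 154, 180 and 126 CPM for the LT mice and 143, 143 and 176 CPM for the mice labelled Fpn-LKO. CPM are counts scaled to a common library size after TMM normalization, the deposited FPKM and TPM being scaled by the authors. The deposited value is 1 count for the whole gene, so a deleted part cannot be read on its own, and every direction given here rests on the labels. The 8 hepatocyte markers, none at 0, summed to between 71920 and 86900 CPM, and 7 of 8 pancreas markers were at 0 in all libraries. The summed pericentral markers (10 genes, 12000 to 14290 CPM in LT and 11740 to 13950 in Fpn-LKO) overlapped between the groups. So did the periportal (9 genes, 2524 to 2729 and 2388 to 3833 CPM), stellate (8 genes, 380 to 443 and 404 to 455 CPM), Kupffer (9 genes, 326 to 429 and 274 to 610 CPM) and blood markers (6 genes, 351 to 942 and 473 to 1243 CPM). The immediate-early genes (14 genes, 37.7 to 46.2 and 43.1 to 76.4 CPM) overlapped as well, as did RNAs without a poly(A) tail (5 genes), with 7.65% to 8.76% of counts in LT and 3.29% to 10.2% in Fpn-LKO. The sum of the 10 endothelial markers did not, with 354 to 428 CPM in LT and 339 to 347 CPM in Fpn-LKO. That sum is mostly Stab2, Kdr, Stab1 and Clec4g, and gene by gene the list was split, with 7 negative and 3 positive log2 fold changes. Lyve1 (1.30), Pecam1 (0.34) and Tek (0.26) were the positive ones, and Erg alone had CPM groups that did not overlap. In the periportal list, where Pck1 is the largest part of the sum, every gene but Cdh1 (-0.42) had a positive log2 fold change. Those of Sds (1.27), Gls2 (1.155) and Ass1 (0.68) were the largest, each with an adjusted p of 0.982 (edgeR). The CPM groups of Gls2 and Sdsl did not overlap, as was seen for 10.6% of all genes tested. In the stellate list, where Reln and Dcn make up most of the sum, every gene but Reln (-0.09) had a positive log2 fold change. Those of Col1a1 (1.06) and Col3a1 (0.78) were the largest, each with an adjusted p of 0.982 (edgeR). The CPM groups of Col1a1 and Pdgfrb did not overlap, again beside 10.6% of all genes tested. LT replicate 3 stood apart in the sum of the 6 cholangiocyte markers, with 84.4 CPM against 12.9 to 29.9 CPM elsewhere, nearly all of it from Spp1.

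Of the members, Vhl lay higher in all 3 Fpn-LKO livers than in any LT liver, at 1.38 times the LT level, and Vegfa lay lower in all 3, at 0.837 times. The other 7 had overlapping groups. No member passed the test over all 17274 genes, in which 4 genes did, or 0.0232%. The adjusted p-values of the members lay between 0.923 and 0.997 (edgeR quasi-likelihood test, Benjamini-Hochberg adjustment). DESeq2, exactTest and limma on log2(TPM + 1) also called 0 members. At an unadjusted p under 0.05 there were 2 of 9 members, where 4.8% of all genes tested were called. Of these 2, the 1 that was higher stands beside 2.62% of all genes, and the 1 that was lower beside 2.19%. The count was 1 of 9 without LT replicate 1, LT replicate 3, Fpn-LKO replicate 2 or Fpn-LKO replicate 3. It was also 1 of 9 with DESeq2, with exactTest and with all genes of at least 1 read, and 1 of 7 with limma. Groups that did not overlap, 2 of 9 here, were seen for 10.6% of all genes. A positive log2 fold change was seen for 3 of 9 members and for 49.4% of all genes. The median log2 fold change of the members was -0.03, beside -0.004 for all genes tested. For 1 gene the exact permutation test cannot go below p = 0.1 in groups of 3, and Vhl and Vegfa each gave that value.

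**Figure D1:**
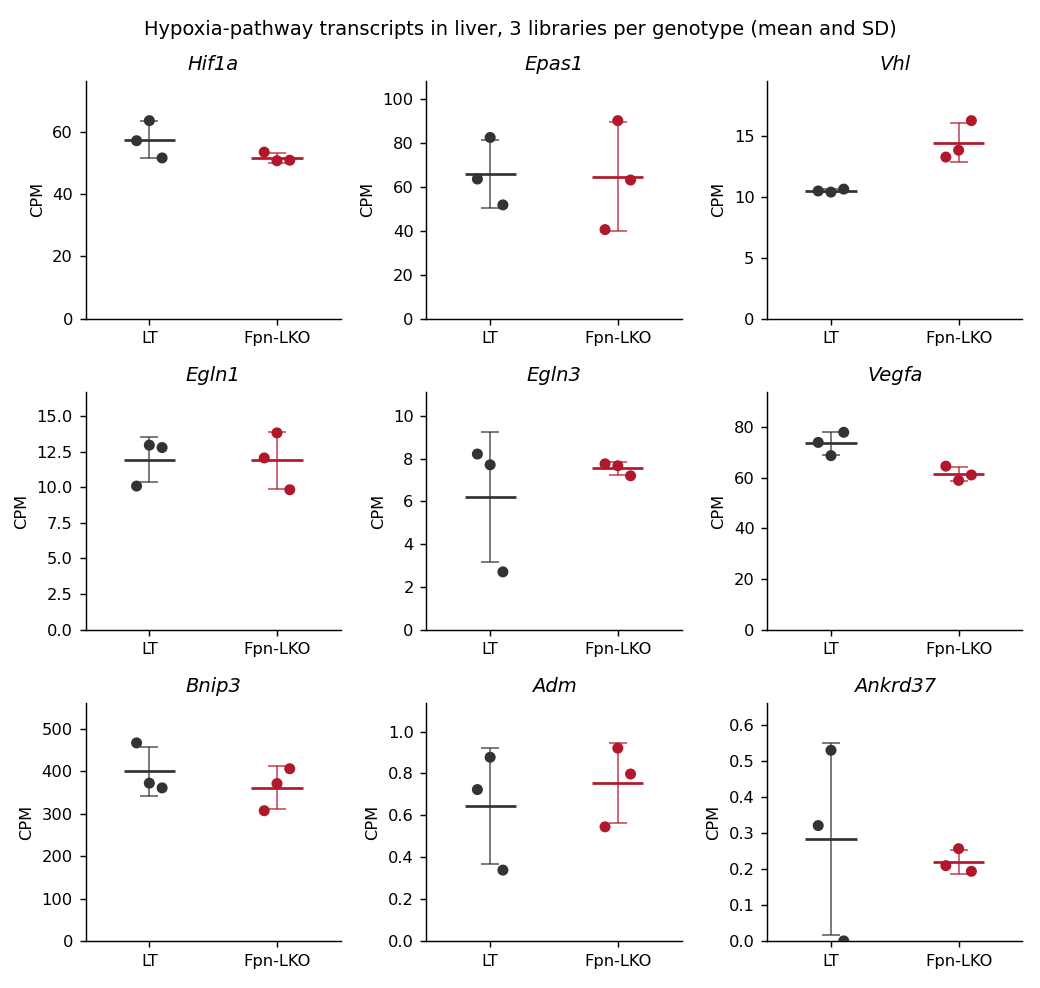
CPM of each of the 9 members in the 6 libraries, with LT in black and Fpn-LKO in red; points are libraries, horizontal lines are means and whiskers are 1 SD (n = 3 each). The 3 Fpn-LKO points lie above all LT points for Vhl (13.3 to 16.3 against 10.4 to 10.7 CPM) and below them for Vegfa (58.9 to 64.5 against 68.6 to 77.8 CPM), and LT replicate 3 is the low point for Egln3, Adm and Ankrd37.

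Levels of different genes were set side by side as FPKM, which is scaled to transcript length. Bnip3, a mitophagy receptor on the outer mitochondrial membrane, led by a wide margin, with 153 to 233 FPKM over the 6 libraries. Vegfa followed with 15.1 to 19.4 FPKM, above every value of the HIF alpha subunits. Epas1 (6.65 to 14.7 FPKM) and Hif1a (9.27 to 12.1 FPKM) had means of 10.5 FPKM each and could not be ordered. Vhl (3.15 to 4.96 FPKM), Egln1 (2.35 to 3.38 FPKM) and Egln3 (0.821 to 2.68 FPKM) came next, each overlapping its neighbour. Adm (0.190 to 0.559 FPKM) and Ankrd37 (0 to 0.453 FPKM) were the lowest, and their ranges overlapped. The HIF targets among the members thus stood at both ends of the scale, with the alpha subunits between them.

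**Figure D2:**
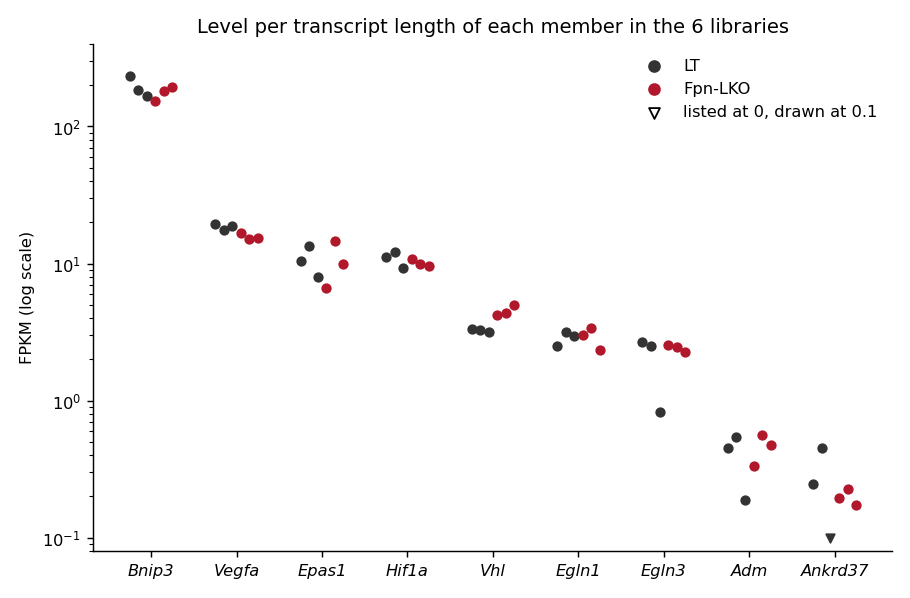
FPKM of the members in each library on a log axis, ordered by the mean over the 6 libraries, with LT in black and Fpn-LKO in red. Bnip3 lies between 153 and 233 FPKM, Epas1 and Hif1a share the range near 10.5 FPKM, and the triangle marks Ankrd37 in LT replicate 3, which is listed at 0 and drawn at 0.1.

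Hif1a, on chromosome 12 (GRCm38, 73901324 to 73947554), encodes the HIF-1 alpha subunit. In replicate order, the LT livers held 57.1, 63.5 and 51.5 CPM and the Fpn-LKO livers 53.4, 50.6 and 50.8 CPM. LT replicate 3 lay within the Fpn-LKO range, so the groups overlapped (log2 fold change -0.15, 95% interval -0.41 to 0.11). The antisense gene Gm15283 and, on the same strand, the coding gene Gm49321 overlap Hif1a, and their reads could have been counted with it. Epas1, on chromosome 17 (86753864 to 86833410), encodes HIF-2 alpha, the subunit best known in liver for erythropoietin and iron genes, and is also strongly used by endothelial cells. Its level was 63.5, 82.4 and 51.8 CPM for LT and 40.5, 90.1 and 63.1 CPM for Fpn-LKO. On its strand Epas1 shares 1379 bases with the gene AC096777.1. Both the lowest and the highest library were labelled Fpn-LKO, and the spread within a genotype (SD 15.5 and 24.8 CPM, n = 3 each) was far larger than the difference between the means of 65.9 and 64.6 CPM. The interval of its log2 fold change, -0.71 to 0.65, spans 0.610 to 1.57 times the LT level. The endothelial markers, of which some had higher and some lower means in Fpn-LKO, summed to 346 and 347 CPM in Fpn-LKO replicates 1 and 2, the libraries where Epas1 was lowest and highest. Single markers moved in opposite directions within these sums. Stab2 (115 and 88.9 CPM), Pecam1, Lyve1 and Tek were lower in replicate 2. Stab1 (39.3 and 60.8 CPM), Kdr, Cdh5, Clec4g, Erg and Oit3 were higher there, as Epas1 was. Whether these values bear on Epas1 was not tested. In such bulk tissue, fewer cells of a type and less RNA per cell cannot be told apart.

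The ratio of Epas1 to Hif1a FPKM was 0.937, 1.10 and 0.855 in LT and 0.621, 1.48 and 1.03 in Fpn-LKO. The difference of the log2 ratio was 0.03, with SDs of 0.19 in LT and 0.63 in Fpn-LKO (n = 3 each, exact two-sided permutation test, p = 1.0). The ratio lay on both sides of 1 in each genotype, and its lowest and highest values were both from Fpn-LKO livers.

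Of the prolyl hydroxylases, Egln1 (PHD2), on chromosome 8 (124908587 to 124949254), is the main oxygen sensor of most cells. Its values were 10.1, 12.9 and 12.8 CPM for LT and 12.1, 13.8 and 9.82 CPM for Fpn-LKO. The means were both 11.9 CPM, and the 95% interval of the log2 fold change ran from -0.41 to 0.40. Egln3 (PHD3), on chromosome 12 (54178981 to 54203874), is itself a HIF target and so closes a feedback loop. The LT livers held 8.21, 7.71 and 2.71 CPM and the Fpn-LKO livers 7.75, 7.66 and 7.20 CPM. All but LT replicate 3 lay between 7.20 and 8.21 CPM, and that library was low, with 112 reads where the other libraries had 334 to 409. Its log2 fold change of 0.28 (95% interval -0.60 to 1.15) became -0.08 without that library. Egln2 (PHD1), the remaining hydroxylase of the family, had 19.5 to 24.7 CPM in LT and 23.8 to 28.4 CPM in Fpn-LKO, with a log2 fold change of 0.22 (95% interval -0.08 to 0.53). Hif1an, the asparagine hydroxylase that blocks HIF transactivation, had 8.29 to 10.9 and 9.67 to 12.4 CPM.

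Vhl, on chromosome 6 (113623994 to 113631634), encodes the substrate receptor that binds hydroxylated HIF alpha. The LT livers held 10.5, 10.4 and 10.7 CPM (SD 0.124), and those labelled Fpn-LKO 13.3, 13.9 and 16.3 CPM (SD 1.59, n = 3 each). The LT values lay close together, and each Fpn-LKO value was above them. The fold change was 1.38 (95% interval 1.12 to 1.70), or 0.46 on the log2 scale with a standard error of 0.13 (unadjusted p = 0.00833 in edgeR). Adjusted over the whole table, p was 0.923 (edgeR). The values rest on 441 to 756 reads per library. The groups were also apart in FPKM (3.15 to 3.33 against 4.22 to 4.96) and in TPM. Vhl was chosen with its values in these libraries known, so its direction is not independent evidence. The parts that work with VHL in the ubiquitin ligase had intervals that span 0. The log2 fold changes were -0.16 for Elob and -0.06 for Eloc, the elongins that join VHL to the cullin, -0.02 for Cul2, the cullin scaffold, and -0.007 for Rbx1, the RING subunit. For Cul2, measured most tightly, the 95% interval was -0.24 to 0.20. Whether Vhl differed from the other subunits of its complex was not tested.

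**Figure D3:**
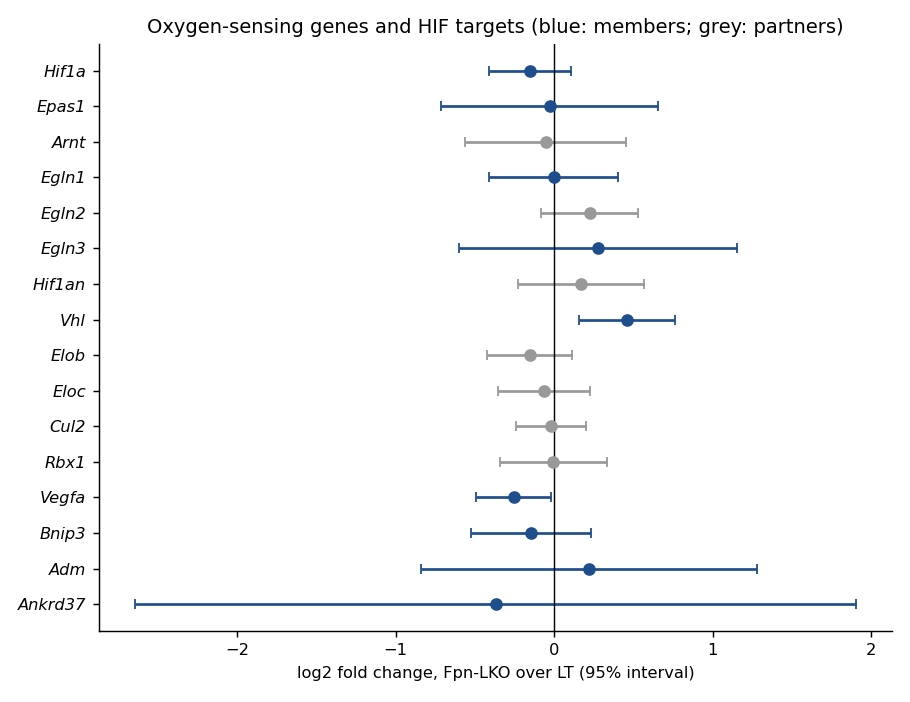
Log2 fold change (Fpn-LKO over LT, horizontal axis) with its 95% interval from edgeR for the members (blue) and for their partners in oxygen sensing (grey). The intervals of Vhl (0.16 to 0.76) and Vegfa (-0.49 to -0.02) lie on 1 side of 0, all others span it, and that of Ankrd37 is the widest, from -2.65 to 1.91.

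Across the machinery as a whole, 16 genes were listed and 14 passed the filter. None had an unadjusted p under 0.05, and the adjusted p-values lay between 0.982 and 0.999 (edgeR). DESeq2 and exactTest called 0 as well. The median log2 fold change was -0.01, with 6 genes positive and 8 negative. Arnt, the shared beta subunit, had 20.6 to 21.5 CPM in LT and 13.4, 24.1 and 23.5 CPM in Fpn-LKO. Replicate 1 of Fpn-LKO was thus low for both Arnt and Epas1. Cited2, which competes with HIF for its coactivators, was the 1 gene of the list whose groups did not overlap (log2 fold change -0.53, unadjusted p = 0.0794 in edgeR), which is 7.14% of those tested beside 10.6% of all genes. In TPM the groups of Cited2 overlapped, and those of Egln2 did not. Hif3a, another alpha subunit, and Arnt2 did not pass the filter, with at most 0.508 CPM in any library.

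Vegfa, on chromosome 17 (46016993 to 46032377), encodes the endothelial growth factor that hepatocytes supply to the sinusoids. The LT livers held 73.8, 68.6 and 77.8 CPM and the Fpn-LKO livers 64.5, 58.9 and 61.0 CPM. The lowest LT library lay just above the highest Fpn-LKO library, with SDs of 4.61 and 2.84 CPM (n = 3 each). On the log2 scale the difference was -0.26, with a 95% interval of -0.49 to -0.02 (unadjusted p = 0.0377 in edgeR). Adjusted over the whole table, p was 0.982 (edgeR). In TPM the groups overlapped, and limma on log2(TPM + 1) gave -0.15. Of the endothelial markers, the VEGF receptor Kdr had 64.6 to 81.1 CPM in LT and 56.6 to 67.4 CPM in Fpn-LKO, which overlap, with a log2 fold change of -0.30. Lyve1, Pecam1 and Tek had positive log2 fold changes, and that of Cdh5 was -0.01, so the lower sum of the list did not hold for each of its genes. Whether these values bear on one another was not tested.

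Bnip3, on chromosome 7 (138890836 to 138909506), was at 467, 372 and 361 CPM for LT and at 307, 371 and 406 CPM for Fpn-LKO. The highest library was LT and the lowest Fpn-LKO, and the other 4 lay between with no order by genotype (log2 fold change -0.15, 95% interval -0.53 to 0.23). Bnip3 had the most reads of the members, 14663 to 23275 per library, although 6 other genes hold near-identical sequence and could share them. Adm, on chromosome 7 (110627657 to 110629820), encodes the vasodilator peptide adrenomedullin and had 36, 38 and 14 reads in LT and 26, 43 and 37 reads in Fpn-LKO. In CPM these were 0.723, 0.877 and 0.338 against 0.545, 0.921 and 0.797. Ankrd37, on chromosome 8 (45996908 to 46000414), encodes a small ankyrin repeat protein and is one of the most regular HIF targets in cultured cells. It had 16, 23 and 0 reads in LT and 10, 12 and 9 reads in Fpn-LKO. The 0 in LT replicate 3 allows up to 0.0725 CPM (3 reads), where the lowest other library had 0.194 CPM. The 95% intervals on the log2 scale were -0.84 to 1.28 for Adm and -2.65 to 1.91 for Ankrd37. The limit for 0 reads covers counting error only. Both genes were lowest in LT replicate 3, as Egln3 was. Without it their log2 fold changes were -0.08 and -0.94, where they had been 0.22 and -0.37. Of the cholangiocyte markers, only Spp1 was highest in that library (83.1 CPM), and whether it bears on these low values was not tested.

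HIF binds DNA at short sites whose core reads ACGTG. The core was searched on both strands of RefSeq promoter windows (GRCm38.p6, 250 bases before to 50 bases after the start), of which 8 members had at least 1, all except Epas1. It was present in 6 of the 9 windows of the members and in 19.6% of all 32851 windows. The related core GCGTG was present in 5 of the 9 and in 32.4% of all. The matches of ACGTG are shown because they are where the pathway's own motif stands beside genes of the pathway, with the motif in capitals. The sequences run 5′ to 3′ on the strand of the gene and each match lies before the start its window is built on. For Hif1a, Ankrd37 and the second start of Vegfa, that start lies inside the gene span given above, which reaches to another start further upstream. CACGTG holds ACGTG on both strands and is also the E-box of other factors.
Bnip3, chr7:138909597-138909626, minus strand: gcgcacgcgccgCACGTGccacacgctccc
Hif1a, chr12:73907720-73907749, plus strand: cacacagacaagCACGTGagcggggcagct
Hif1a, chr12:73907785-73907813, plus strand: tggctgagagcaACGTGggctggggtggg
Egln1, chr8:124949306-124949334, minus strand: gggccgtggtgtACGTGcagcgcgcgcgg
Egln3, chr12:54204087-54204115, minus strand: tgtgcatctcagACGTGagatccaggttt
Ankrd37, chr8:46000075-46000100, minus strand: cccagcagtACGTGcctagctcggct
Ankrd37, chr8:45999851-45999868, minus strand: cagtgtttgggtACGTGa
Vegfa, second start, chr17:46025358-46025386, minus strand: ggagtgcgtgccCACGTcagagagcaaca
The windows of Vhl and Adm and the first start of Vegfa held no ACGTG on either strand, which says nothing of sites further away. The window of Adm did hold the related core GCGTG.

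Other genes of the pathway were read from lists written from textbook knowledge. Of the glycolytic HIF targets, 19 of 19 were tested and 0 passed (adjusted p from 0.982 to 0.999, edgeR), as with DESeq2 and exactTest. Their median log2 fold change was -0.002. At an unadjusted p under 0.05 there were 3, all lower in Fpn-LKO, or 15.8% of the list beside 4.8% of all genes in either direction. The count was 1 without LT replicate 1 and 1 without LT replicate 2, but 4 without LT replicate 3 and 5 with DESeq2. The 3 genes of the reported count were Aldoc, Pdk1 and Eno1. Aldoc, an aldolase, had 3.41 to 6.07 against 1.81 to 2.62 CPM (log2 fold change -0.95). Pdk1, which keeps pyruvate out of mitochondria, had 90.8 to 120 against 71.5 to 86.9 CPM (-0.37). Eno1, an enolase, had 182 to 226 against 160 to 175 CPM (-0.33). Pfkp, a phosphofructokinase, and Pfkfb3, which makes its activator, pointed the other way, with log2 fold changes of 0.57 and 0.62 (95% intervals -0.02 to 1.17 and -0.03 to 1.27). In CPM the groups of Aldoc, Pdk1, Eno1 and Pfkp did not overlap, which is 4 genes or 21.1% of the list beside 10.6% of all genes. In TPM the groups of Pdk1 and Eno1 overlapped, whereas those of Aldoc, Pfkp and Pfkfb3 did not. Of the list, 9 genes had positive and 10 negative log2 fold changes.

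Of 30 other HIF targets, 25 passed the filter and 0 passed the test (adjusted p from 0.982 to 0.997, edgeR), and DESeq2 and exactTest gave 0 too. Epo, the classical HIF-2 target, Car12 and Cox4i2 had no read in any library, which allows up to 0.0725 CPM in the shallowest, and Car9 and Stc2 were below the filter. The median log2 fold change of the list was 0.03. There were 3 genes with an unadjusted p under 0.05, of which 1 was higher and 2 were lower in Fpn-LKO, beside 4.8% of all genes (2.62% higher and 2.19% lower). With limma on log2(TPM + 1) there was 1. P4ha2, a collagen prolyl hydroxylase, lay at 2.89, 4.32 and 5.41 CPM for LT and at 6.39, 7.24 and 8.12 CPM for Fpn-LKO (log2 fold change 0.79, 95% interval 0.20 to 1.38). Bhlhe40, a repressor of the clock and of hypoxic genes, lay at 54.4 to 60.3 CPM for LT and at 32.5 to 47.95 CPM for Fpn-LKO (log2 fold change -0.45, 95% interval -0.81 to -0.09). In CPM the groups of P4ha2, Bhlhe40 and Kdm6b did not overlap, which is 3 of the 25 genes tested, beside 10.6% of all genes. In TPM those of Kdm6b overlapped, whereas those of P4ha2 and Bhlhe40 did not. Igfbp3, which binds insulin-like growth factors, had a log2 fold change of -0.95 with overlapping groups, and the next by p among genes with a mean of at least 1 CPM were Kdm6b, a histone demethylase, with 0.39, and Ero1l, an oxidase of the endoplasmic reticulum, with 0.17. Plod2, a collagen lysyl hydroxylase just under that mean (0.966 CPM), had a log2 fold change of 0.98 (95% interval -0.23 to 2.18).

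The iron-linked targets of HIF comprised 7 genes, of which none passed in edgeR (adjusted p from 0.570 to 0.995) and 1, Tfrc, had an unadjusted p under 0.05. That gene, lower in Fpn-LKO, is 14.3% of the list, beside 4.8% of all genes in either direction and 2.19% lower. Tfrc, the transferrin receptor, is a HIF target whose messenger RNA is also kept by iron regulatory proteins when iron is short. Its level was 35.3, 28.0 and 52.6 CPM for LT and 13.1, 17.2 and 18.9 CPM for Fpn-LKO, and it was called with DESeq2 and exactTest. In CPM the groups of Tfrc did not overlap, which is 14.3% of the list beside 10.6% of all genes. Those of the others overlapped in CPM, and in TPM those of Slc11a2 did not. The log2 fold changes of these others were -0.15 for Hmox1 (heme oxygenase), 0.05 for Cp (ceruloplasmin), 0.04 for Slc11a2 (an iron importer), -0.04 for Trf (transferrin), 0.05 for Hamp (hepcidin) and 0.007 for Slc40a1. The median of the list was 0.007. The intervals of Hmox1 (-1.39 to 1.08) and Hamp (-1.13 to 1.22) were wide.

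**Figure D4:**
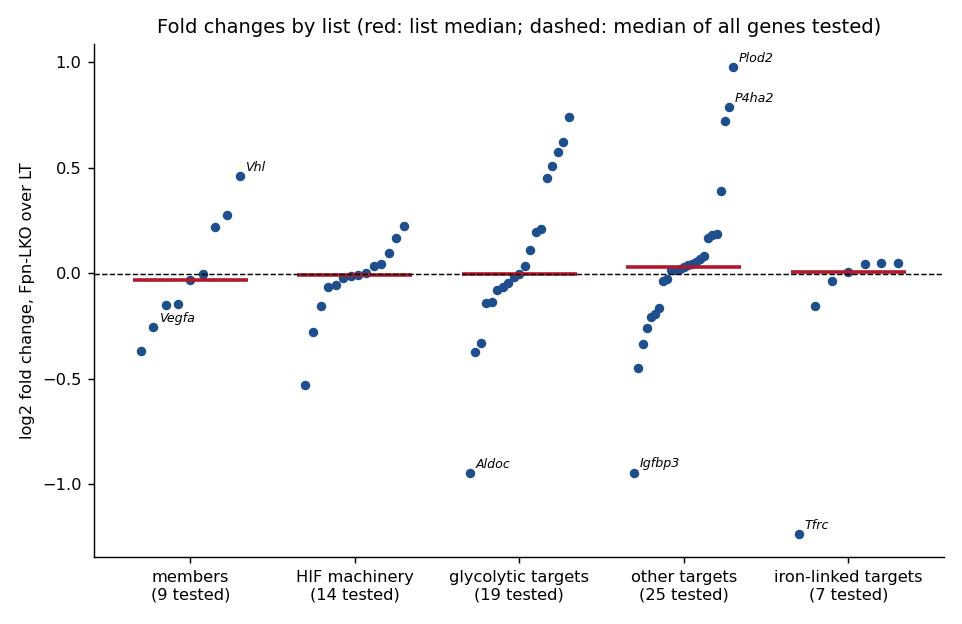
Log2 fold changes (Fpn-LKO over LT) of the tested genes of each list, 1 point per gene, with the list median in red and the median of all genes tested as a dashed line. The medians lie between -0.03 and 0.03, with Vhl at the top of the members and Tfrc at the bottom of the iron-linked targets (-1.24).

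The pattern of each member over the 6 libraries was set beside that of all genes with a mean of at least 5 CPM. The nearest gene by Pearson's r of log2 CPM was Mlh3 for Vhl (r = 0.993), Cdk12 for Hif1a (0.983), Pnpla2 for Epas1 (0.988), Mccc1 for Egln1 (0.989), Kctd9 for Egln3 (0.996), Cdv3 for Vegfa (0.984), Inpp5b for Ankrd37 (0.989), Cops4 for Bnip3 (0.991) and Herpud2 for Adm (0.997). With 6 points per gene and 8995 or 8996 genes compared, such values are a description only.

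The direction of Vhl was the same under all 16 alternative settings, with log2 fold changes of 0.37 to 0.54 and an unadjusted p under 0.05 in all 16. Its adjusted p ranged from 0.341 to 1.0, so it was called in none. Vegfa stayed negative in all 16, between -0.30 and -0.15, with an unadjusted p under 0.05 in 7.

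**Figure D5:**
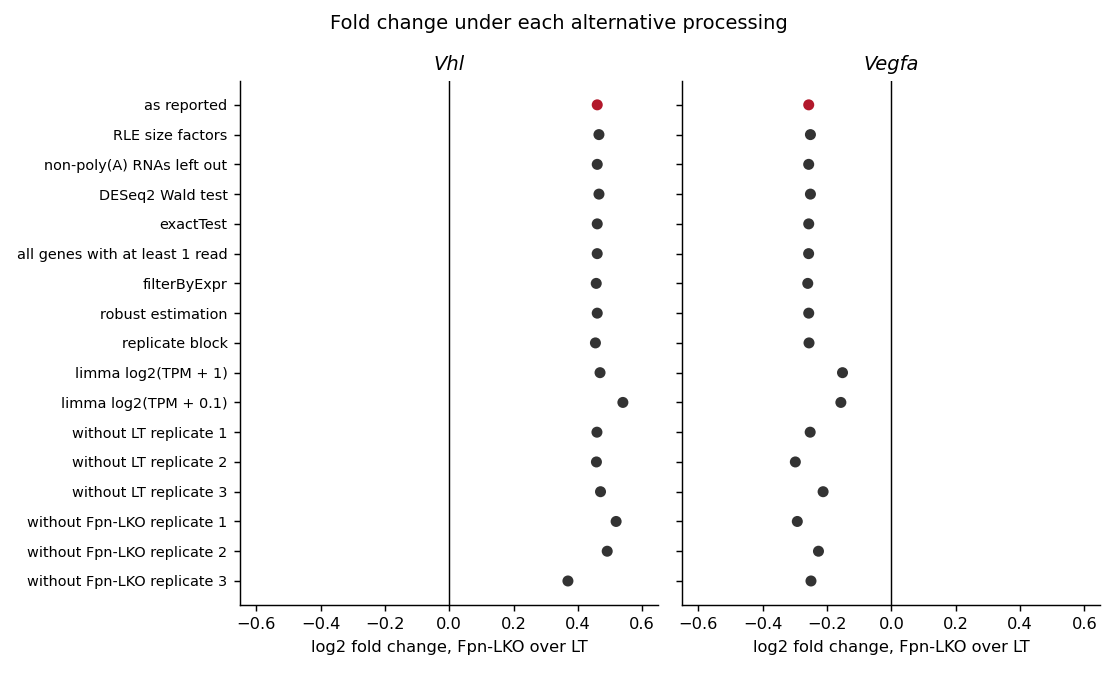
Log2 fold change of Vhl and Vegfa (Fpn-LKO over LT, horizontal axes) under the reported processing (red) and each of 16 alternatives (black), 1 row per setting. Vhl lies between 0.37 and 0.54 and Vegfa between -0.30 and -0.15, and leaving out Fpn-LKO replicate 3 gives the lowest value of Vhl.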

How the data were processed

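Liver RNA of 6 mice was sequenced as paired reads of 100 bases, all in 1 batch per the labels. The library kits named differ, an mRNA kit (1 µg RNA) in the labels and a total RNA kit with rRNA removal (0.5 µg) in the methods. Per the submitters' processing notes, HISAT2 2.1.0, Bowtie2 2.3.4.1 and StringTie 2.1.3b were used with build mm10. The authors deposited read counts per gene, not normalized, together with FPKM (per transcript length and library size) and TPM (scaled to the same total in each library). The annotation release and the use of strand in counting were not given in the sources used here.

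The unaltered counts went into the quasi-likelihood test of edgeR 4.0.16 (R 4.3.3) after TMM scaling. As in the methods, a gene was dropped when 2 or more libraries had 0 reads, and p-values were adjusted by Benjamini-Hochberg over 17274 genes with a threshold of 0.05. The exactTest of the methods was an alternative, beside DESeq2 1.42.0, limma 3.58.1 on TPM (mean of 1 or more, log2 scale, pseudocount 1 or 0.1), other scalings and filters, robust estimation, a replicate block, and leaving out each mouse. Standard errors came from the F statistic. Tests were checked on simulated counts. The members and the lists were chosen with earlier results of these data known, and lists were described by counts and medians only. Named were the members, Slc40a1, the rest of the oxygen-sensing core, up to 5 genes per target list with the smallest p and a mean of at least 1 CPM, and the gene most like each member. Cited2, Plod2, Spp1, Kdr and other endothelial markers, Arnt2, Epo, Car9, Car12, Stc2, Cox4i2, Hamp and further iron-linked genes were named after their values were seen. So were the single periportal and stellate markers.

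The methods take each point as a separate animal. Pairs of libraries of 1 genotype differed by far more than sampling noise (chi-square per degree of freedom 63.5 to 309). Counting error was small for members with many reads, and the common biological coefficient of variation was 0.275. In GENCODE M21, searched with BLAST 2.17.0 at 90% identity over at least 100 bases, Bnip3 had matches in 6 other genes, Hif1a in 2 and Ankrd37 in 1, and genes on the other strand overlap Adm, Bnip3, Ankrd37 and Hif1a, and genes on the same strand Hif1a (Gm49321) and Epas1 (AC096777.1), so reads of these members could have been split or shared. Coordinates are those of RefSeq GRCm38.p6, the same build as mm10.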

Additional observations from a re-analysis of the deposited data

How the results depend on the processing

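No alternative called a member, a gene of the machinery, a glycolytic target or one of the other targets. Of the iron-linked targets, 1 was called with DESeq2 and 1 with exactTest, where the reported count was 0. The 4 genes called over the whole table became 72 with DESeq2, 63 with exactTest, 7 with limma at either TPM pseudocount and 0 with the replicate block (850 at an unadjusted p under 0.05), and 0 to 6 when 1 mouse was left out, with 0 without LT replicate 2 and 1 without LT replicate 1, LT replicate 3 or Fpn-LKO replicate 2. The replicate numbers pair different mice. Deviations of same-numbered libraries correlated at 0.25, 0.03 and 0.13, and those of differently numbered libraries at -0.19 to 0.08. The numbers were not taken as pairs, a choice that these correlations do not settle.

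Vhl, Hif1a, Vegfa and Bnip3 kept their sign under every alternative. Epas1, reported at -0.03, was 0.015 and 0.011 with limma on log2(TPM + 1) and log2(TPM + 0.1), and -0.35 to 0.22 leaving out 1 mouse. Egln1, reported at -0.005, was 0.0016 with RLE size factors, 0.0018 with DESeq2, 0.071 and 0.082 with limma, and -0.13 to 0.12 leaving out 1 mouse. Ankrd37 was 0.14 with the replicate block and -0.94 to 0.42 leaving out 1 mouse. Egln3 ran from -0.078 to 0.53 and Adm from -0.083 to 0.50 leaving out 1 mouse, lowest without LT replicate 3. The difference of the log2 ratio of Epas1 to Hif1a ran from -0.26 to 0.36. With limma on log2(TPM + 1), every member given a value had a higher log2 fold change than reported. Hif1a was at -0.02 and Bnip3 at -0.05. The cause of these shifts was not tested. Adm and Ankrd37 had a mean TPM under 1, so limma gave no value for them. The members with the fewest reads were Ankrd37 (0 to 23) and Adm (14 to 43), and counting error and spread between mice were not separated.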

Other observations

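Values that belong to no comparison concern single libraries. LT replicate 3 held the lowest value of 3 of the 9 members (Egln3, Adm and Ankrd37), which is 33.3% of them, and of 18.7% of all genes tested. Over the glycolytic targets it was lowest for 5 of 19 genes, or 26.3%, and over the other targets for 5 of 25. Fpn-LKO replicate 1 held the highest value of 9 of the 25 other targets, or 36.0%, and of 18.3% of all genes tested, while it was highest for 0 of the 9 members. Egln3 and Adm correlated over the 6 libraries with r = 0.822, and Vhl and Vegfa with r = -0.844, values that describe 6 points sharing the same libraries.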
